A study of Mus musculus with 4 samples.

Results

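The genes of MHC class I antigen presentation were followed in RNA from mouse LSK cells with and without the chromatin remodelling factor BPTF. The group was set by gene name, with no threshold on the measurements, and holds 10 genes: the heavy chains H2-K1 and H2-D1, the light chain B2m, the peptide transporter genes Tap1 and Tap2, the loading factor Tapbp, the transactivator Nlrc5, and the immunoproteasome subunits Psmb8, Psmb9 and Psmb10. All 10 were among the 18598 genes listed, and all 10 passed the filter on low values that left 14858 genes for testing.

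LSK cells are the lineage-negative, SCA-1-positive, c-KIT-positive bone marrow fraction, which holds the blood stem cells and early progenitors. There were 2 Bptf cKO libraries and 2 control libraries, each made from LSK cells pooled from 5 C57BL/6 mice of about 3 months, and the cells were taken 10 days after cre induction. The Bptf cKO mice carried floxed Bptf alleles and Mx1-cre, a cre driven by an interferon-responsive promoter that also acts outside LSK cells. The controls were littermates described in the study's text as Bptf f/f without cre, and are labelled only as control. Both genotypes received pIpC, a double-stranded RNA mimic that switches on Mx1-cre through interferon. The controls thus share the interferon stimulus with the cKO mice but not the cre, and loss of Bptf cannot be told apart from the presence of cre. BPTF is the largest subunit of the NURF complex, which slides nucleosomes and binds methylated histone H3.

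MHC class I molecules show peptides from inside the cell to CD8 T cells and to NK cells. The proteasome cuts proteins into peptides, TAP carries these into the endoplasmic reticulum, and tapasin holds TAP beside the empty heavy chain and light chain until a peptide is bound. Interferons raise most genes of this route, and NLRC5 is the transactivator that works at the SXY module of class I promoters. Class I molecules are present on nearly all nucleated cells, blood stem cells included.

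The promoters of the class I chains carry the short motifs through which these signals are known to act, and are shown for that reason. The sequences come from the RefSeq promoter windows of GRCm38.p6, which run from 250 bases before to 50 after the gene start, and 8 of the 10 genes had a window (Tap2 and Nlrc5 had none). Capitals mark matches on either strand to the kappaB-type motif, to the ISRE-type motif (GAANNGAAA, or a longer form with a further A before its spacer, whose matches need not hold the shorter one), to TGACG (CRE-type) and to CCAAT. Each line is the gene's own strand, 5′ to 3′.
H2-K1, chr17:34000348-34000468, minus strand: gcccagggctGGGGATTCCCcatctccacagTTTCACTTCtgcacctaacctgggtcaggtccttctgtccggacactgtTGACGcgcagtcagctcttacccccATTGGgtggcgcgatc
H2-D1, chr17:35262913-35263055, plus strand: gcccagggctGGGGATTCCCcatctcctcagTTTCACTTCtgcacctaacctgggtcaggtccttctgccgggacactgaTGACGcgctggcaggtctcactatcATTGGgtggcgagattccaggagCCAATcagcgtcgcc
B2m, chr2:122147538-122147648, plus strand: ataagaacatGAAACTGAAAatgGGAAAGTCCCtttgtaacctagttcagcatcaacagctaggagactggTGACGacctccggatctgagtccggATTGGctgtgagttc
Tap1, chr17:34187324-34187484, plus strand: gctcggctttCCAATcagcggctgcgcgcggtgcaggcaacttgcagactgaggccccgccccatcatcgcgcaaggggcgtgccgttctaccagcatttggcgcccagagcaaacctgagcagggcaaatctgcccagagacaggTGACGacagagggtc

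H2-K1 and H2-D1 shared 89 of 100 bases counted from the kappaB-type match, with all 4 kinds of match in the same order. B2m held the same 4 kinds, with the ISRE-type match before the kappaB-type match. Among all 32851 windows, 4.79% held the kappaB-type letters, 7.52% the shorter and 3.44% the longer ISRE-type letters, 20.8% TGACG and 37.4% CCAAT. The Tap1 window held only TGACG and CCAAT. Tap1 and Psmb9 lie head to head with starts 226 bases apart, so their windows share 275 bases and the same bases give the TGACG and CCAAT matches of both. A GAS-type match, TTCNNNGAA, was present in the Psmb8 window alone among the 8, and in 8.30% of all windows. These matches describe letters and do not show that a factor was bound.

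On the GRCm38 build, 7 of the genes lie on chromosome 17 in the MHC region. Tapbp (33915899-33929292) and H2-K1 (33996017-34000347) come first, followed by the block of Psmb9 (34181987-34187764), Tap1 (34187553-34197225), Psmb8 (34197721-34201454) and Tap2 (34203527-34216321), and then H2-D1 (35262730-35267499). B2m is on chromosome 2 (122147686-122153083), and Nlrc5 (94434356-94527272) and Psmb10 (105935735-105938444) are on chromosome 8. Positions are those of GENCODE vM21.

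The heavy chains and light chain were among the most abundant transcripts of LSK cells. Values are normalized counts, which are read counts divided by a size factor for each library. H2-K1, a classical heavy chain, was at 33435 and 34207 in control replicates 1 and 2 and at 36195 and 44828 in Bptf cKO replicates 1 and 2. Both cKO libraries lay above both controls, and cKO replicate 2 stood highest. The means were 33821 ± 546 for control and 40512 ± 6105 for cKO (SD, n = 2 per genotype). The log2 fold change was 0.25 ± 0.13 (SE) and did not pass the test (adjusted p = 0.451, limma). H2-D1, the other classical heavy chain, was at 19038 and 18584 in controls and at 21293 and 25888 in cKO. The groups did not overlap, and the log2 fold change was 0.32 ± 0.13 (SE; adjusted p = 0.313, limma). B2m, the light chain shared by all class I heavy chains, was at 29907 and 30571 in controls and at 33088 and 37899 in cKO. Its groups did not overlap either, and its log2 fold change was 0.23 ± 0.11 (SE; adjusted p = 0.415, limma).

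The 3 chains kept nearly the same proportions in all libraries. The ratio of H2-K1 to B2m normalized counts lay between 1.09 and 1.18, and that of H2-D1 to B2m between 0.608 and 0.683. In each ratio the highest value was that of cKO replicate 2. H2-K1 and H2-D1 are close copies of each other and of other class I genes: 8.79% of the 50-base windows of H2-K1 and 14.3% of those of H2-D1 also occur in other genes, so reads could be split between them. B2m lies wholly within Patl2 on the opposite strand, but Patl2 was at no more than 19.4 normalized counts in any library.

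The TAP genes had the largest fold changes among the genes of peptide transport. Tap1, a chain of the transporter, was at 6509 and 6486 in controls and at 7802 and 10530 in cKO. The control libraries were nearly equal and both cKO libraries stood above them, cKO replicate 2 by more. Its log2 fold change was 0.48 ± 0.16 (SE; adjusted p = 0.252, limma), with a 95% interval of 0.08 to 0.88. Tap2, the partner chain, was at 4176 and 3304 in controls and at 4828 and 5204 in cKO. Here the spread was wider among controls than among cKO libraries, and the groups again did not overlap. Its log2 fold change was 0.43 ± 0.14 (SE; adjusted p = 0.246, limma), with a 95% interval of 0.08 to 0.78. Neither gene passed the test over all genes.

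Tapbp, which encodes tapasin, stood apart from the others. It was at 4534 and 4076 in controls and at 3890 and 4687 in cKO, so that the groups overlapped. Its log2 fold change was -0.0097 ± 0.13 (SE; adjusted p = 0.983, limma), with a 95% interval of -0.33 to 0.31. The sign was not stable, since recentring the libraries on their medians gave 0.042. Tapbp shares 3422 bases with Zbtb22 on the same strand, whose normalized counts were between 876 and 1157.

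Nlrc5, the class I transactivator, was at 3149 and 4377 in controls and at 4119 and 6442 in cKO. The groups overlapped, since control replicate 2 lay above cKO replicate 1. The log2 fold change of 0.47 ± 0.26 (SE) had the widest 95% interval of the 10 genes, -0.19 to 1.13, and did not pass the test (adjusted p = 0.462, limma). Between libraries of the same replicate number cKO was higher in both cases, by log2 differences of 0.39 and 0.56.

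The immunoproteasome subunits replace the standard catalytic subunits of the 20S proteasome and favour peptides that fit class I molecules. Psmb8, which takes the place of Psmb5, was at 3617 and 3484 in controls and at 3826 and 4096 in cKO. The groups did not overlap, but the difference was small, with a log2 fold change of 0.16 ± 0.093 (SE; adjusted p = 0.490, limma). Psmb9, which takes the place of Psmb6, was at 2701 and 3142 in controls and at 3053 and 4344 in cKO. Control replicate 2 exceeded cKO replicate 1, and the log2 fold change was 0.32 ± 0.19 (SE; adjusted p = 0.492, limma). Psmb10, which takes the place of Psmb7, was at 1987 and 2236 in controls and at 2328 and 3481 in cKO. Its groups did not overlap, and cKO replicate 2 stood far above the rest. The log2 fold change was 0.43 ± 0.21 (SE; adjusted p = 0.400, limma).

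**Figure D1:**
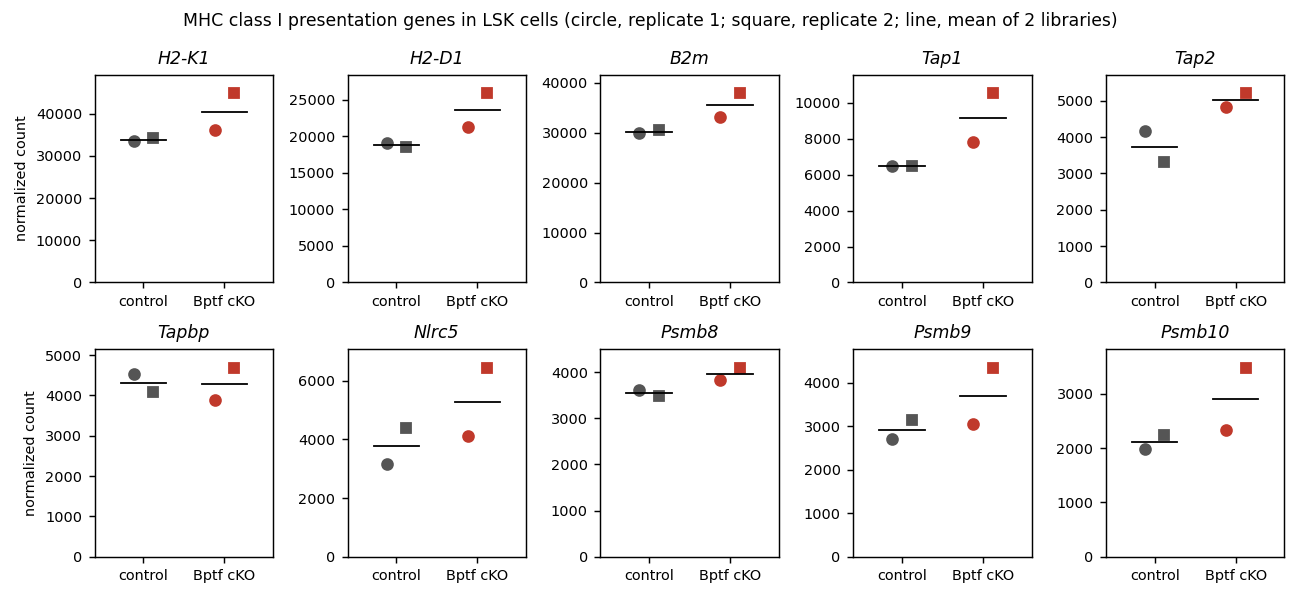
Normalized counts (vertical axes from 0, a scale for each gene) of the 10 genes in control and Bptf cKO LSK cells, with circles for replicate 1, squares for replicate 2 and a line at the mean of the 2 libraries. The cKO replicate 2 square is the highest point in all 10 plots, and in 7 of them both cKO points lie above both control points.

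No gene of the 10 passed the test at an adjusted p under 0.05, where 0.74% of the 14858 genes tested did (55 higher and 55 lower in cKO, 0.37% each). At an unadjusted limma p under 0.05, 3 of the genes were higher in cKO and none was lower, against 6.79% of all genes higher, 8.96% lower and 15.7% in either direction. These were H2-D1, Tap1 and Tap2. edgeR and DESeq2 on the recovered reads also called 0 of the 10, where edgeR called 0.633% of the genes (0.33% higher, 0.303% lower) and DESeq2 5.55% (2.18% higher, 3.36% lower). The lowest adjusted p of the 10 in DESeq2 was 0.0945, for Tap1. The exact two-sided permutation test over 4 libraries cannot give a p below 0.333, so it could not have called any gene. The p-values rest in part on the spread between 2 pools of mice per genotype. That spread also holds differences between the replicate numbers, which the main comparison did not set apart. Deviations of same-numbered libraries correlated at 0.845 over the 10 and at 0.452 over all genes tested.

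As a group, 7 of the 10 had both cKO libraries above both controls, where 23.2% of all genes did, and none had both below, where 23.8% did. The exceptions were Tapbp, Nlrc5 and Psmb9, whose groups overlapped. The fold change was positive for 9 of the 10, against 50.2% of all genes, and after recentring for 10. All 10 had their highest value in cKO replicate 2, against 26.4% of all genes. So had 15 of 18 19S and 11 of 16 other 20S proteasome genes. Both cKO libraries lay above both controls for 9 of these 18 and 6 of these 16. The same held for 8 of 16 other peptide loading and trimming genes. The median log2 fold change of the 10 was 0.32, beside 0.0010 over all genes tested, and 0.37 beside 0.053 after recentring the libraries on their medians. The genes are related in function and several are neighbours, so the 10 are not independent observations.

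The size of the differences depended on cKO replicate 2. Without that library the median log2 fold change was 0.14 and the lowest adjusted p of the 10 was 0.811 (limma). The count of genes with cKO above control was 7 (38.3% of all genes) without control replicate 1, 9 (37.9%) without control replicate 2, 10 (36.2%) without cKO replicate 1 and 7 (34.1%) without cKO replicate 2. Without cKO replicate 1 the median was 0.47 and the lowest adjusted p was 0.257 (limma). The summed normalized counts of the 10 were 109053 and 110468 in controls and 120423 and 147399 in cKO.

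The libraries also differed in a way that the genotype does not explain. Xist, the RNA of the inactive X chromosome, was at 0.775 and 3.25 normalized counts in the replicate 1 libraries of control and cKO, and at 15675 and 11843 in the replicate 2 libraries. The Y-linked gene Ddx3y was at 1837 and 1835 in the replicate 1 libraries and at 456 and 769 in the replicate 2 libraries of control and cKO. The replicate 2 libraries were also shallower, with 14091054 and 14104526 reads on listed genes in control and cKO against 24875746 and 30134742 in the replicate 1 libraries. Differences within each kind of library rest on 1 library per genotype and were not tested. Between the replicate 1 libraries the median log2 difference of the 10 genes was 0.17, and between the replicate 2 libraries it was 0.47. For 9 of the 10 the cKO library was higher in both (34.5% of all genes), and for none was it lower in both (34.4%), the exception being Tapbp at -0.22 and 0.20. Of 18 19S proteasome genes, 15 were higher in both and 1 was lower in both. Tap1 differed by 0.26 and 0.70, Tap2 by 0.21 and 0.66, Psmb10 by 0.23 and 0.64, and Nlrc5 by 0.39 and 0.56 on the log2 scale. The heavy chains differed by 0.11 and 0.39 for H2-K1 and by 0.16 and 0.48 for H2-D1. The part of this split in the differences between genotypes was not tested.

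**Figure D2:**
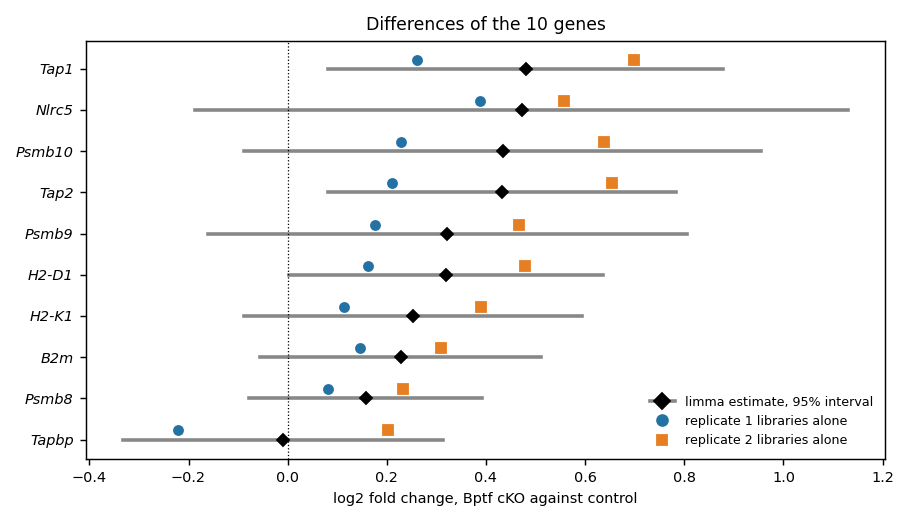
Log2 fold change of Bptf cKO against control (horizontal axis) for the 10 genes, with the limma estimate and its 95% interval as a diamond and bar, and the difference between the replicate 1 libraries (circles) and between the replicate 2 libraries (squares). Every square lies to the right of its circle, and the estimates run from -0.0097 for Tapbp to 0.48 for Tap1.

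Levels of different genes were compared per kilobase of the longest coding transcript. In controls the order of mean normalized counts per kb was B2m (35162), H2-K1 (20890), H2-D1 (8949), Tap1 (2200), Psmb8 (2181), Psmb9 (2161), Psmb10 (1610), Tapbp (1485), Tap2 (1087) and Nlrc5 (497). Tap1, Psmb8 and Psmb9 did not differ beyond their spread, since the control libraries of Psmb9, at 1997 and 2324 per kb, enclosed those of Tap1 and Psmb8. Psmb10 (1515 and 1705) and Tapbp (1564 and 1407) overlapped as well. In cKO the order of the top 4 was unchanged, and Psmb9, at 2736 per kb, stood above Psmb8, at 2433, although their libraries overlapped. By mean normalized count not corrected for length, the 10 lay between percentile 86.6 (Psmb10) and percentile 99.9 (H2-K1 and B2m) of the genes tested.

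The standard catalytic subunits gave a reference for the immunoproteasome. None of Psmb5, Psmb6 and Psmb7 passed the test, and their log2 fold changes were 0.20 ± 0.15, -0.018 ± 0.14 and 0.047 ± 0.20 (SE). For Psmb6 the sign changed to 0.034 after recentring. The per-kb ratio of Psmb8 to Psmb5 was 2.36 and 1.97 in controls and 2.21 and 1.98 in cKO, which overlapped. The ratio of Psmb9 to Psmb6 was 0.768 and 0.742 in controls and 0.855 and 1.07 in cKO. That of Psmb10 to Psmb7 was 1.38 and 1.12 in controls and 1.49 and 1.78 in cKO. In these last 2 ratios both cKO libraries lay above both controls, and the mean log2 ratios were higher in cKO by 0.34 and 0.39. Between the replicate 1 libraries the log2 differences were 0.16 and 0.11, and between the replicate 2 libraries they were 0.52 and 0.66. The ratios were not tested.

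**Figure D3:**
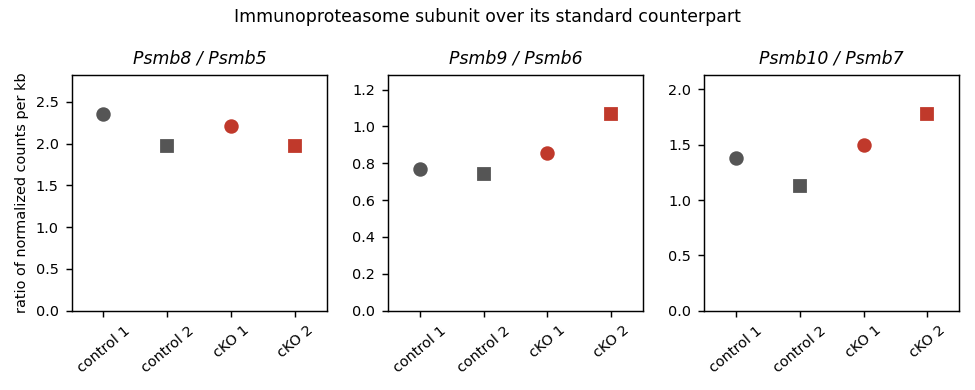
Ratio of each immunoproteasome subunit to the standard subunit it replaces, in normalized counts per kb (vertical axes from 0), for each of the 4 libraries (circles, replicate 1; squares, replicate 2; grey, control; red, Bptf cKO). Both cKO points lie above both control points for Psmb9/Psmb6 and Psmb10/Psmb7 and not for Psmb8/Psmb5.

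Other genes of the class I route were counted by list in the same fit. Among 19 other class I heavy chains tested, limma and edgeR called none. DESeq2 called 1 lower (Mr1), as it did 3.36% of all genes. At an unadjusted limma p under 0.05, 0 were higher and 2 lower, against 6.79% and 8.96% of all genes. The median log2 fold change of the 19 was -0.19. These are the Qa, Tla and class I-like genes, many of them copies whose reads can be split. Mr1, which presents vitamin metabolites to MAIT cells, was at 402 and 419 in controls and at 161 and 219 in cKO (log2 fold change -1.12 ± 0.21 SE; adjusted p = 0.0964, limma). H2-Q6, a Qa gene, was at 5057 and 5809 in controls and at 2131 and 4274 in cKO (log2 fold change -0.84 ± 0.33 SE; adjusted p = 0.307, limma). Both had cKO libraries below both controls, the opposite order to H2-K1 and H2-D1. Of the 19, 5 had both cKO libraries below both controls and 1 had both above, against 23.8% and 23.2% of all genes. The highest value was in cKO replicate 2 for 10 of the 19, against 26.4% of all genes. The median log2 difference of the 19 was -0.41 between the replicate 1 libraries and 0.072 between the replicate 2 libraries.

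Among 16 other genes of peptide loading and trimming, limma and edgeR called none. DESeq2 called 1 higher (Sec61a1), as it did 2.18% of all genes. The median log2 fold change of the 16 was 0.16. At an unadjusted limma p under 0.05, 5 of them were higher and 0 lower in cKO, against 6.79% and 8.96% of all genes. Sec61a1, a subunit of the channel into the endoplasmic reticulum, was at 3786 and 4150 in controls and at 5464 and 6116 in cKO (0.54 ± 0.11 SE; adjusted p = 0.107, limma). Lnpep, an aminopeptidase that trims peptides, was at 1484 and 1403 in controls and at 1917 and 1913 in cKO (0.41 ± 0.097 SE; adjusted p = 0.151, limma). Both cKO libraries lay above both controls for each of the pair.

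No gene was called by limma, edgeR or DESeq2 among 16 other 20S subunits and assembly factors, 18 19S subunits or 5 proteasome activators, whose median log2 fold changes were 0.15, 0.19 and 0.18. At an unadjusted limma p under 0.05, 1, 0 and 2 of them were higher and none was lower, against 6.79% and 8.96% of all genes. Psmb3, a structural 20S subunit, had a log2 fold change of 0.41 (adjusted p = 0.204, limma), and Psmg1, an assembly chaperone, had 0.32 (adjusted p = 0.401). Of the 19S subunits, the ATPase Psmc2 had 0.31 (adjusted p = 0.416) and Psmd7 had 0.24 (adjusted p = 0.444). Psme1 and Psme2 encode the interferon-inducible PA28 activator, with log2 fold changes of 0.18 and 0.39 (adjusted p = 0.598 and 0.293). Psme3, Psme4 and the inhibitor Psmf1 had 0.28, 0.10 and -0.12 (adjusted p = 0.235, 0.682 and 0.693). The medians of these lists were positive. Fold changes were negative for 3 of the 16, 1 of the 18 and 1 of the 5 genes, and for 7400 of all 14858.

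**Figure D4:**
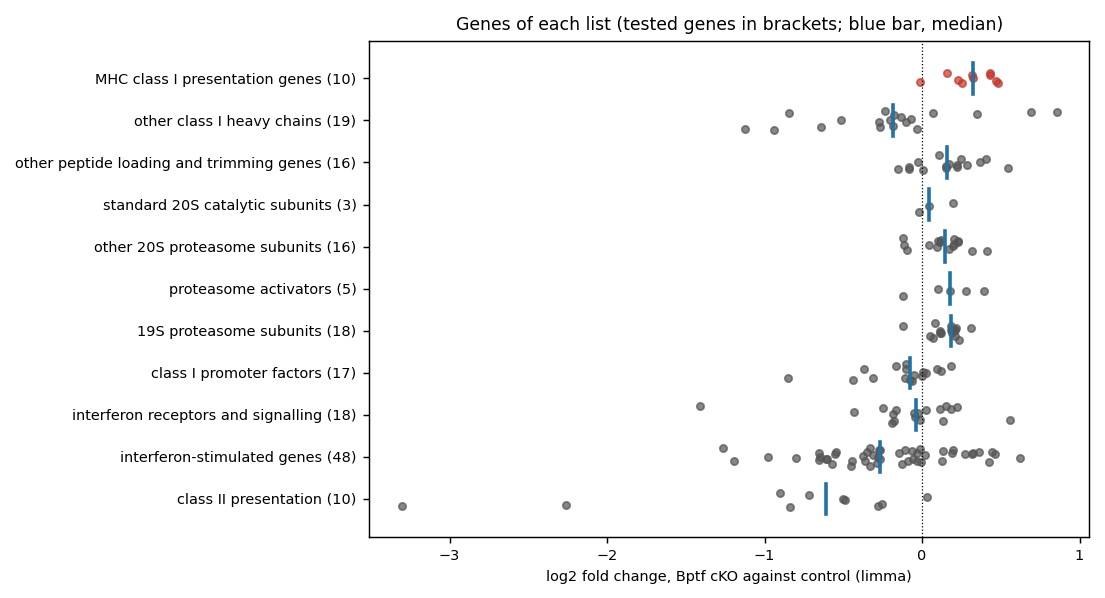
Log2 fold change of Bptf cKO against control (horizontal axis, limma) for each tested gene of each list (points; tested genes in brackets), with the list's median as a blue bar. The median is 0.32 for the 10 class I presentation genes, between 0.15 and 0.19 for the proteasome lists other than the standard catalytic subunits, -0.27 for the interferon-stimulated genes and -0.61 for class II presentation.

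The factors of class I promoters gave no call by limma, edgeR or DESeq2. Of 17 tested, 0 were higher and 1 lower at an unadjusted limma p under 0.05, against 6.79% and 8.96% of all genes. The median log2 fold change was -0.076. Rfx5, a subunit of the RFX complex that binds the X box of SXY modules, was at 1168 and 1084 in controls and at 919 and 749 in cKO (-0.44 ± 0.14 SE; adjusted p = 0.251, limma). Irf8, an interferon regulatory factor, was at 1789 and 708 in controls and at 645 and 604 in cKO (-0.85 ± 0.43 SE; adjusted p = 0.424, limma). The control libraries of Irf8 lay far apart, and the log2 fold change was -0.18 without control replicate 1 and -1.52, then called lower, without control replicate 2.

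Among 18 genes of interferon receptors and signalling, limma and edgeR called none. DESeq2 called 1 lower (Socs3), as it did 3.36% of all genes. At an unadjusted limma p under 0.05, 0 were higher and 1 lower, against 6.79% and 8.96% of all genes. The median log2 fold change was -0.035. Socs3, a feedback inhibitor of cytokine signalling, was at 374 and 225 in controls and at 96.8 and 121 in cKO (-1.41 ± 0.31 SE; adjusted p = 0.132, limma).

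Interferon-stimulated genes outside the class I route had a negative median, -0.27 on the log2 scale. Of 48 such genes none was called by limma or edgeR and 5 were lower by DESeq2, which called 3.36% of all genes lower. At an unadjusted limma p under 0.05, 15 were lower and 0 higher, against 8.96% and 6.79% of all genes. The fold change was negative for 35 of the 48, and for 7400 of all 14858 genes tested. Mx1, the gene whose promoter drives the cre, was at 227 and 179 in controls and at 96.2 and 72.0 in cKO (-1.27 ± 0.27 SE; adjusted p = 0.126, limma). Dhx58, an RNA sensor, was at 828 and 800 in controls and at 447 and 382 in cKO (-0.97 ± 0.14 SE; adjusted p = 0.0632, limma). Both cKO libraries lay below both controls for 22 of the 48 and above for 2, against 23.8% and 23.2% of all genes. Within this list, 19 genes had their highest value in cKO replicate 2, 19 in control replicate 1, 10 in control replicate 2 and 0 in cKO replicate 1. Over all 14858 genes tested, these counts were 3921, 3955, 3907 and 3075.

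Genes of class II presentation, which display peptides taken up from outside the cell, had negative fold changes in 9 of 10 tested and a median of -0.61. Over all 14858 genes tested, 7400 had negative fold changes. Of the 10, limma and edgeR each called 1 lower, DESeq2 called 2 lower, and none was called higher. Over all genes, limma called 0.37%, edgeR 0.303% and DESeq2 3.36% lower. At an unadjusted limma p under 0.05, 3 were lower and 0 higher, against 8.96% and 6.79% of all genes. H2-DMb1, a chain of the class II peptide-exchange factor, fell from 350 and 428 in controls to 32.5 and 45.2 in cKO (-3.30 ± 0.27 SE; adjusted p = 0.0222, limma). The call was lost without control replicate 2 and without either cKO library.

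Markers of the sort and of other cells were counted beside these results. Bptf fell from 5520 and 5850 in controls to 3398 and 3320 in cKO (log2 fold change -0.76 ± 0.090 SE; adjusted p = 0.0439, limma), a call that was lost in edgeR and when any 1 library was left out. These counts cover the whole gene. The study's text reports that cre removed an exon and left unstable, out-of-frame transcripts, so the counts do not measure how complete the deletion was. Kit did not pass the test (-0.010, adjusted p = 0.984), and Ly6a, which encodes SCA-1, was at 815 and 1369 in controls and at 726 and 1743 in cKO. Of the markers of T and NK cells 3 of 10 were listed, and Cd3e, Cd3d, Cd3g, Cd8a and Trac were not. The 3 listed summed to 2066 and 1319 in controls and to 2364 and 2348 in cKO, with a median log2 fold change of 0.55. None was called. Klrb1c, an NK cell receptor, was at 20.2 and 29.1 in controls and at 60.4 and 87.5 in cKO. It was higher at an unadjusted limma p under 0.05, as were 6.79% of all genes. The log2 fold changes of the 3 listed genes ran from -0.73 to 1.55. Both cKO libraries lay above both controls for 2 and below for 1, against 23.2% and 23.8% of all genes. Summed myeloid markers were at 57944 and 12634 in controls and at 42907 and 36426 in cKO, B and plasma cell markers at 8055 and 2967 and at 4426 and 3446, and dendritic markers at 574 and 462 and at 532 and 439. Erythroid markers were at 1018 and 1103 in controls and at 214 and 344 in cKO, and stromal and endothelial markers at 2863 and 1871 and at 2535 and 2530. These sums follow the most abundant genes of each list. Median log2 fold changes were -0.47 for myeloid, -0.24 for B and plasma and -0.89 for dendritic markers. They were -1.96 for erythroid and -0.83 for stromal and endothelial markers. In the same order, fold changes were negative for 8 of 10, 7 of 8, 4 of 5, 7 of 7 and 4 of 5 tested. Over all 14858 genes tested, 7400 were negative. Sdc1 (-2.73, adjusted p = 0.0204) of the B and plasma list and Epor (-1.96, adjusted p = 0.0443) of the erythroid list were lower in cKO by limma. Both calls were lost when any 1 library was left out, and that of Epor also in edgeR. The part of these markers in the class I values was not tested, and in bulk RNA fewer cells of a type and less RNA per cell cannot be told apart.

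The genes most like the median profile of the 10 were sought among 10805 other genes with a mean of at least 100. Likeness was the Euclidean distance from that median profile, with log2 profiles centred on their mean over the 4 libraries. Among the closest were Dpagt1, Ufc1, Mrpl55 and Ak1, at distances of 0.0386, 0.0478, 0.0491 and 0.0517, against a median distance of 0.436 over all candidates. Dpagt1, which starts the making of N-linked glycans, was at 1153 and 1148 in controls and at 1230 and 1528 in cKO. None of these 4 passed the test.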

How the data were processed

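RNA of LSK cells was measured in 2 control and 2 Bptf cKO libraries, grouped by the sample labels. The authors deposited a signal per gene and library in the form of counts divided by a size factor, together with a log2 fold change, its error, a score (the test statistic) and p-values, which hold their own comparison and were not used. The submitters' processing notes name HISAT2, featureCounts, DESeq2 and the builds GRCm38 and mm10; versions, strand setting and the counting of shared reads are not given in the sources used here, so reads of overlapping and near-identical genes may be split. Every value (100%, tolerance 0.001) was a whole multiple of 1 read. Reads on listed genes were 24875746 and 14091054 in controls and 30134742 and 14104526 in cKO, and each of the 10 genes had at least 1613 reads in every library, so the number of libraries limits precision.

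Genes with a mean of at least 10 were compared on log2(normalized count + 1) with limma 3.58.1 (R 4.3.3; mean-variance trend, genotype only, two-sided, Benjamini-Hochberg over 14858 genes) and called at an adjusted p under 0.05. Folds on this scale understate changes of low genes. Alternatives were other pseudocounts and filters, recentred libraries, no trend, edgeR 4.0.16 and DESeq2 1.42.0 on recovered reads, the replicate number as a block, and leaving out each library. The fits were tested on simulated data. Named genes were the 10, genes called in a list or otherwise the 2 with the largest absolute log2 fold change at a mean of at least 100, the standard catalytic subunits, the activators, 5 profile neighbours, Bptf and Kit; among the marker lists only called genes are named, beside Ly6a. Some genes that this rule names are not reported here. The members and lists were chosen with earlier results of these data known.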

Additional observations from a re-analysis of the deposited data

Results flagged for a closer look

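Tapbp was the one gene of the 10 whose difference changed sign between the kinds of library. Between the replicate 1 libraries, which held almost no Xist, cKO lay below control by a log2 difference of -0.22, and between the replicate 2 libraries, which held much Xist, cKO lay above control by 0.20. Each value rests on 1 library per genotype, and the difference between them was not tested.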

How the results depend on the processing

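The count of the 10 genes called stayed at 0 under other pseudocounts and filters, recentring, no trend, edgeR, DESeq2 and without any 1 library. With the replicate number as a block, 5 were called higher and 0 lower in cKO: Tap1 (adjusted p = 0.0110), Tap2 (0.0195), Nlrc5 (0.00411), Psmb9 (0.0436) and Psmb10 (0.0189), all by limma, where 6.03% of all genes were called higher. The labels do not say that a number marks a shared batch; deviations of same-numbered libraries correlated at 0.452 over all tested genes and at 0.845 over the 10. Over all genes 55 were higher and 55 lower; no trend gave 2 and 0, DESeq2 318 and 490, the replicate block 896 and 1242, and leaving out 1 library 1 to 76 and 0 to 41 (1 and 0 without cKO replicate 1 and also without cKO replicate 2, 17 lower without control replicate 2). Over the pathway lists 0 were higher and 1 lower; DESeq2 gave 1 and 9, the replicate block 13 and 23, no trend 0 lower, and leaving out 1 library 0 to 2 lower. Signs turned on recentring for Tapbp (0.042), Psmb6 (0.034) and Kit (0.041), and without 1 library for Tapbp (-0.14 to 0.12), Psmb6 (-0.15 to 0.12), Psmb7 (-0.19 to 0.28) and Kit (-0.17 to 0.15). The median of the 10 ranged from 0.14 to 0.47 without 1 library. The causes were not tested.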
